A study of Homo sapiens with 6 samples.

Results

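The genes described here are 57 neighbours on the long arm of human chromosome 11, in bands 11q13-q14, that run from P2RY2 and its neighbour FCHSD2 on the centromeric side to DLG2 on the telomeric side. They were chosen by their log2 ratios, as a stretch of neighbouring genes whose signal was raised on the TANGO-labelled array and the MATE2-labelled array relative to control. The values of the members on those arrays are therefore a description, and nothing was tested with them. Of the 57 members, 51 had at least 1 named probe, with 70 probes in all, out of 18757 named genes and 23960 named probes on the array. HSC3 is an established line of tongue squamous carcinoma cells of human origin. Total RNA from the cells, labelled with Cy5, was hybridized to 6 CodeLink Human Whole Genome Bioarrays, 1 array each for cells treated with TANGO siRNA, MATE2 siRNA, MIA siRNA, MIA2 siRNA or LEMD1 siRNA, and for control cells. TANGO is a name of MIA3, a membrane protein that loads collagen into transport carriers, and MATE2 a name of SLC47A2, an organic cation exporter. MIA and MIA2 are relatives of MIA3, and LEMD1 is a cancer-testis antigen with a LEM domain. The control cells were described as untreated in the methods and as treated with a control siRNA in the deposited design.

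Chromosome band 11q13 is one of the regions most often gained in oral squamous cell carcinoma, with CCND1 and CTTN, on the centromeric side of the members, as its best known genes. PAK1, GAB2, RSF1 and EMSY, within the members, are known from gains of this arm in breast and ovarian carcinomas. DNA copy number was not measured here. Beyond these genes the stretch is mixed in function and holds receptors and kinases, chromatin and RNA processing factors, enzymes of the secretory pathway, mitochondrial proteins, a ribosomal protein and ion channels.

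The values are spot intensities above local background, quantile normalized over the 6 arrays and called signals below. A signal can be compared between arrays for the same probe and not between probes. A ratio was taken where the scanner software flagged the spot as good on both arrays, and a gene was called higher or lower at a difference of 2-fold or more, a log2 ratio of 1. With 1 array per condition no replicate spread is known, so no p-value or error is given. Each array is a slide of its own, so slide and condition cannot be told apart. The number of good spots was 27545 to 30628 per array, and the robust SD of the log2 ratio to control over all named genes was 0.61 for the TANGO-labelled array, 0.65 for the MATE2-labelled array and 0.25, 0.53 and 0.42 for the MIA-labelled, MIA2-labelled and LEMD1-labelled arrays. All 5 ratios share the control array.

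The siRNA targets did not settle every label. The probe of SLC47A2 had a signal of 58.9 on the TANGO-labelled array and 79.6 on the MATE2-labelled array, against 1334, 1575 and 1703 on the MIA-, MIA2- and LEMD1-labelled arrays and 1510 on the control array. It was thus low on both arrays that chose the members. MIA3 had no named probe, and MIA was near background on all 6 arrays. The good probe of MIA2 had a signal of 169 on the MIA2-labelled array, against 155 on the control array. A second probe of MIA2, for another transcript sequence, was near background on all 6 arrays and could not show a fall. LEMD1 was near background on the LEMD1-labelled and MIA2-labelled arrays, with 3192 on the TANGO-labelled array, 1011 on the MATE2-labelled array, 195 on the MIA-labelled array and 278 on the control array. Conditions are therefore named by their label. All 10 squamous epithelium markers with a probe had good spots on every array, with a summed signal of 19018 on the TANGO-labelled array and 17168 on the MATE2-labelled array, against 31877 to 44617 on the other 3 siRNA arrays and 34938 on the control array. The part of this difference in the values below was not tested. COL3A1 and DCN of fibroblasts, CDH5 and KDR of endothelium and PTPRC of leukocytes were near background on all 6 arrays. The summed signal of the 6 fibroblast markers was 542 and 701 on the TANGO- and MATE2-labelled arrays, 513 to 591 on the other 3 siRNA arrays and 394 on the control array, with 4 good spots on each siRNA array and 3 on the control array. At least 1 of the 4 endothelium markers was good on every array, with VWF good on the TANGO-labelled array alone, and the summed signal was 543 on the TANGO-labelled array, 582 on the MATE2-labelled array, 409 to 532 on the other 3 siRNA arrays and 385 on the control array. Of the 4 leukocyte markers with a probe, 2 or 3 were good on every array, with sums of 262 on the TANGO-labelled array, 191 on the MATE2-labelled array, 216 to 316 on the other 3 siRNA arrays and 310 on the control array. The part of these markers in the values below was not tested either. Fewer cells of a type and less RNA per cell cannot be told apart in such samples.

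The members as a block were higher on the TANGO-labelled and MATE2-labelled arrays than on the control array. On the TANGO-labelled array, 10 of 41 measured members were at least 2-fold higher and 0 were lower, against 5.57% of all named genes higher and 9.09% lower. The median log2 ratio of the members was 0.64, with 36 of 41 above 0, and that of all named genes was -0.03, with 48% above 0. On the MATE2-labelled array, 11 of 40 members were at least 2-fold higher and 0 were lower, against 5.93% and 11.7% of all named genes. The median here was 0.43, with 30 of 40 above 0, and -0.03 over all named genes, with 47.8% above 0. Among the 40 members measured in both comparisons, 7 were 2-fold higher on both arrays, 3 on the TANGO-labelled array alone and 4 on the MATE2-labelled array alone. The same split over all named genes is not given here, so these counts only describe the members. Another way to set the arrays apart is by overlap of the signals. Of 39 members with good spots on all 6 arrays, 23 had a higher signal on both these arrays than on each of the 4 other arrays, against 15.6% of all named genes. The signals of 2 members lay below all 4 others, against 18.9% of all named genes. As the choice of the members used these ratios, nothing is read from the distance to the background shares.

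**Figure D1:**
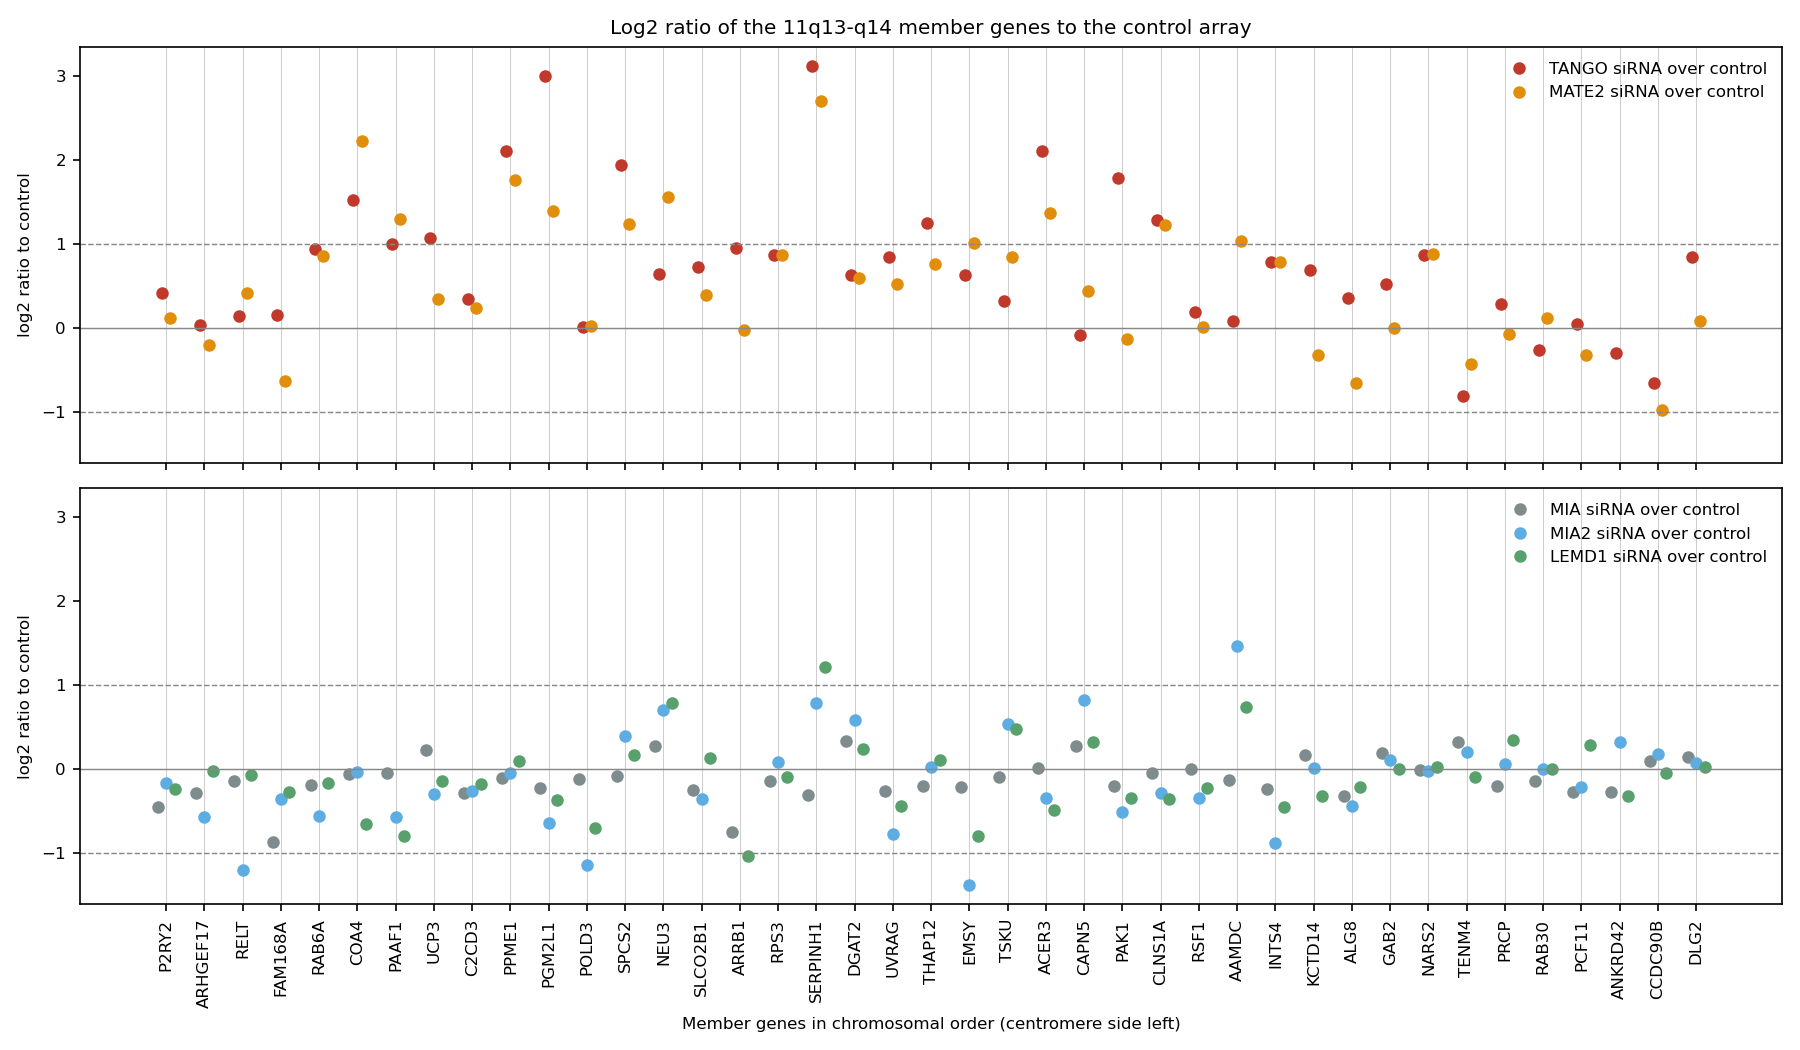
Log2 ratio to the control array (vertical axis) of the 41 members measured on the TANGO-labelled array, in their order along the chromosome with the centromeric side on the left. The upper panel holds the TANGO and MATE2 siRNA arrays and the lower panel the MIA, MIA2 and LEMD1 siRNA arrays. Dashed lines mark 2-fold. The points past the upper dashed line in the upper panel lie between COA4 and AAMDC, and SERPINH1 is the highest on both arrays, at 3.12 and 2.70.

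Of the members that act in the secretory and membrane trafficking routes, 8 of 10 were measured on the TANGO-labelled and the MATE2-labelled arrays, with median log2 ratios of 0.74 and 0.69. SERPINH1, which encodes the collagen chaperone HSP47 of the endoplasmic reticulum, had the highest mean ratio of all members. Its signal was 4236 on the TANGO-labelled array and 3162 on the MATE2-labelled array, against 394, 838 and 1133 on the MIA-, MIA2- and LEMD1-labelled arrays and 487 on the control array. These are 8.70-fold and 6.49-fold above control. A second probe of SERPINH1 was also higher on both arrays, with log2 ratios of 1.95 and 1.12. SPCS2, a subunit of the signal peptidase complex, which removes signal peptides from secreted proteins, had signals of 6337 and 3876 on the TANGO- and MATE2-labelled arrays, against 1556, 2162 and 1859 on the other siRNA arrays and 1647 on the control array. NEU3, a sialidase of the plasma membrane that acts on gangliosides, stood apart on the MATE2-labelled array alone. Its signal there was 161, with 84.9 on the TANGO-labelled array, 66.3 to 94.2 on the other siRNA arrays and 54.5 on the control array. RAB6A, a small GTPase of the Golgi, was under 2-fold on both arrays, with signals of 850 and 799 that did not overlap with the 299 to 394 of the other siRNA arrays or the 442 of the control array. UVRAG, which acts in autophagy and endosome traffic, had signals of 1506 and 1205, against 491 to 701 on the other siRNA arrays and 839 on the control array. The remaining 3 showed no such separation. ALG8, a glucosyltransferase that builds the N-glycan precursor, had log2 ratios of 0.35 and -0.65, the lysosomal peptidase PRCP 0.28 and -0.07, and the Golgi GTPase RAB30 -0.26 and 0.13.

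Members with mitochondrial or metabolic roles had the highest medians among the role groups with over 1 measured gene, 0.97 on the TANGO-labelled array and 0.96 on the MATE2-labelled array, each with 4 of 8 measured genes at least 2-fold higher, against 5.57% and 5.93% of all named genes. PGM2L1 makes glucose 1,6-bisphosphate, a cofactor of sugar phosphate enzymes. Its signal was 1513 on the TANGO-labelled array and 498 on the MATE2-labelled array, against 162, 122 and 147 on the MIA-, MIA2- and LEMD1-labelled arrays and 189 on the control array. It was thus 7.99-fold and 2.63-fold above control, the second highest member on the TANGO-labelled array. COA4 encodes an assembly factor of cytochrome c oxidase and had the reverse order of these arrays. Its signal was 2176 on the TANGO-labelled array and 3524 on the MATE2-labelled array, against 725, 741 and 483 on the other siRNA arrays and 755 on the control array. ACER3, an alkaline ceramidase that breaks ceramides down to sphingosine, had signals of 342 and 206, against 80.4, 63.0 and 57.04 on the other siRNA arrays and 79.5 on the control array. Both signals of ACER3 lay above those of all 4 other arrays. UCP3, a carrier of the inner mitochondrial membrane, reached 2-fold on the TANGO-labelled array alone. Its signal was 382 there, 232 on the MATE2-labelled array, 149 to 215 on the other siRNA arrays and 182 on the control array. The log2 ratio of UCP3 on the TANGO-labelled array was 1.07, and 0.83 to 1.07 over alternative ways of processing, so the 2-fold call did not hold under all of them. AAMDC passed 2-fold on the MATE2-labelled array and also on the MIA2-labelled array. Its signal was 56.7 on the TANGO-labelled array and 109 on the MATE2-labelled array, against 48.8, 147 and 89.6 on the MIA-, MIA2- and LEMD1-labelled arrays and 53.4 on the control array. NARS2, the mitochondrial asparaginyl-tRNA synthetase, had signals of 645 and 649, against 347 to 358 on the other siRNA arrays and 352 on the control array. DGAT2, which completes triglyceride synthesis, was at 0.63 and 0.60. CCDC90B, a mitochondrial protein, went the other way, with signals of 506 and 406, against 773 to 903 on the other siRNA arrays and 795 on the control array.

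Of the members that serve protein synthesis, turnover or modification, 5 of 7 were measured, with a median log2 ratio of 0.87 on both arrays. PPME1, the methylesterase that demethylates the catalytic subunit of protein phosphatase PP2A, had signals of 978 and 774 on the TANGO- and MATE2-labelled arrays, against 211, 221 and 243 on the other siRNA arrays and 227 on the control array. It was 4.30-fold and 3.41-fold above control, with the other 4 arrays close together. Its second probe had log2 ratios of 2.14 and 1.21. PAAF1, which binds the ATPase subunits of the proteasome, had signals of 822 and 1011, against 399, 277 and 236 on the other siRNA arrays and 411 on the control array. The log2 ratio of PAAF1 was 1.30 on the MATE2-labelled array and 0.99995 on the TANGO-labelled array, just under the 2-fold rule. RPS3, a protein of the small ribosomal subunit, had a signal of 23315 on both arrays, which means the same rank on each, against 11590 to 13507 on the other siRNA arrays and 12772 on the control array. KCTD14 was at 0.69 and -0.33 and the calpain protease CAPN5 at -0.08 and 0.44.

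The nuclear members act in chromatin, DNA replication and RNA processing, and 7 of 9 were measured. Their medians were 0.63 on the TANGO-labelled array and 0.76 on the MATE2-labelled array, and 6 of the 7 had both signals above those of the other 4 arrays, against 15.6% of all named genes. POLD3 and RSF1 are among the 6, but their signals were close to those of the control array. For POLD3 the signal was 763 on both the TANGO- and MATE2-labelled arrays and 753 on the control array. It was 694, 343 and 464 on the MIA-, MIA2- and LEMD1-labelled arrays. CLNS1A, a subunit of the methylosome that prepares Sm proteins for the spliceosome, had signals of 3044 and 2917, against 1215, 1024 and 981 on the other siRNA arrays and 1251 on the control array. THAP12, a THAP domain protein, had signals of 246 and 176, against 90.3 to 112 on the other siRNA arrays and 103 on the control array. A second probe of THAP12, near background on the MIA-labelled array alone, had log2 ratios of 0.64 and 0.36. The mean over its good probes was 0.95 on the TANGO-labelled array, so the 2-fold call of THAP12 there rests on 1 probe. EMSY, a BRCA2-binding repressor, had signals of 288 and 375, against 161, 71.7 and 107 on the MIA-, MIA2- and LEMD1-labelled arrays and 187 on the control array. This probe of EMSY thus spanned a wide range, being 2.01-fold above control on the MATE2-labelled array and the lowest on the MIA2-labelled array. A second probe of EMSY was at -0.51 on the TANGO-labelled array and 0.05 on the MATE2-labelled array. The 2-fold call on the MATE2-labelled array therefore rests on 1 probe. INTS4, a subunit of the Integrator complex that cleaves nascent RNA, had the same log2 ratio of 0.79 on both arrays with the probe taken. Its other good probes were at 0.19 and 0.70 on the TANGO-labelled array and at 0.01 and 0.55 on the MATE2-labelled array. POLD3, a subunit of DNA polymerase delta, was level with control at 0.02 and 0.02, as was the chromatin remodelling factor RSF1 at 0.19 and 0.02. PCF11, which acts in transcript cleavage and termination, had signals of 213 and 165, against 171 to 252 on the other siRNA arrays and 206 on the control array.

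Receptors, ligands and signal transducers had the lowest medians among the role groups with at least 5 measured genes, 0.42 on the TANGO-labelled array and 0.00 on the MATE2-labelled array over 7 measured genes. PAK1, a kinase downstream of the GTPases Rac and Cdc42, was the only one of these 7 past 2-fold. Its signal was 1534 on the TANGO-labelled array and 407 on the MATE2-labelled array, against 388, 313 and 352 on the other siRNA arrays and 445 on the control array. The raised signal of PAK1 was thus on the TANGO-labelled array alone, and its second probe had a log2 ratio of 0.51 there and -0.68 on the MATE2-labelled array. ARRB1, beta-arrestin 1, had signals of 153 and 78.2, with 79.4 on the control array. P2RY2, a receptor for extracellular ATP and UTP, was at 0.42 and 0.12, the adaptor GAB2 at 0.52 and 0.00, the TNF receptor family member RELT at 0.14 and 0.42, ARHGEF17 at 0.03 and -0.20, and the secreted protein TSKU at 0.33 and 0.84. WNT11, a secreted ligand, and LRRC32, which holds latent TGF-beta at the cell surface, had good spots on the TANGO- and MATE2-labelled arrays and on no other array. WNT11 was at least 2.73-fold and at least 1.98-fold above control on these arrays, and LRRC32 at least 1.36-fold and at least 1.38-fold. Such bounds set the signal against the higher of the gene's own control signal and the lowest good signal of that array.

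**Figure D2:**
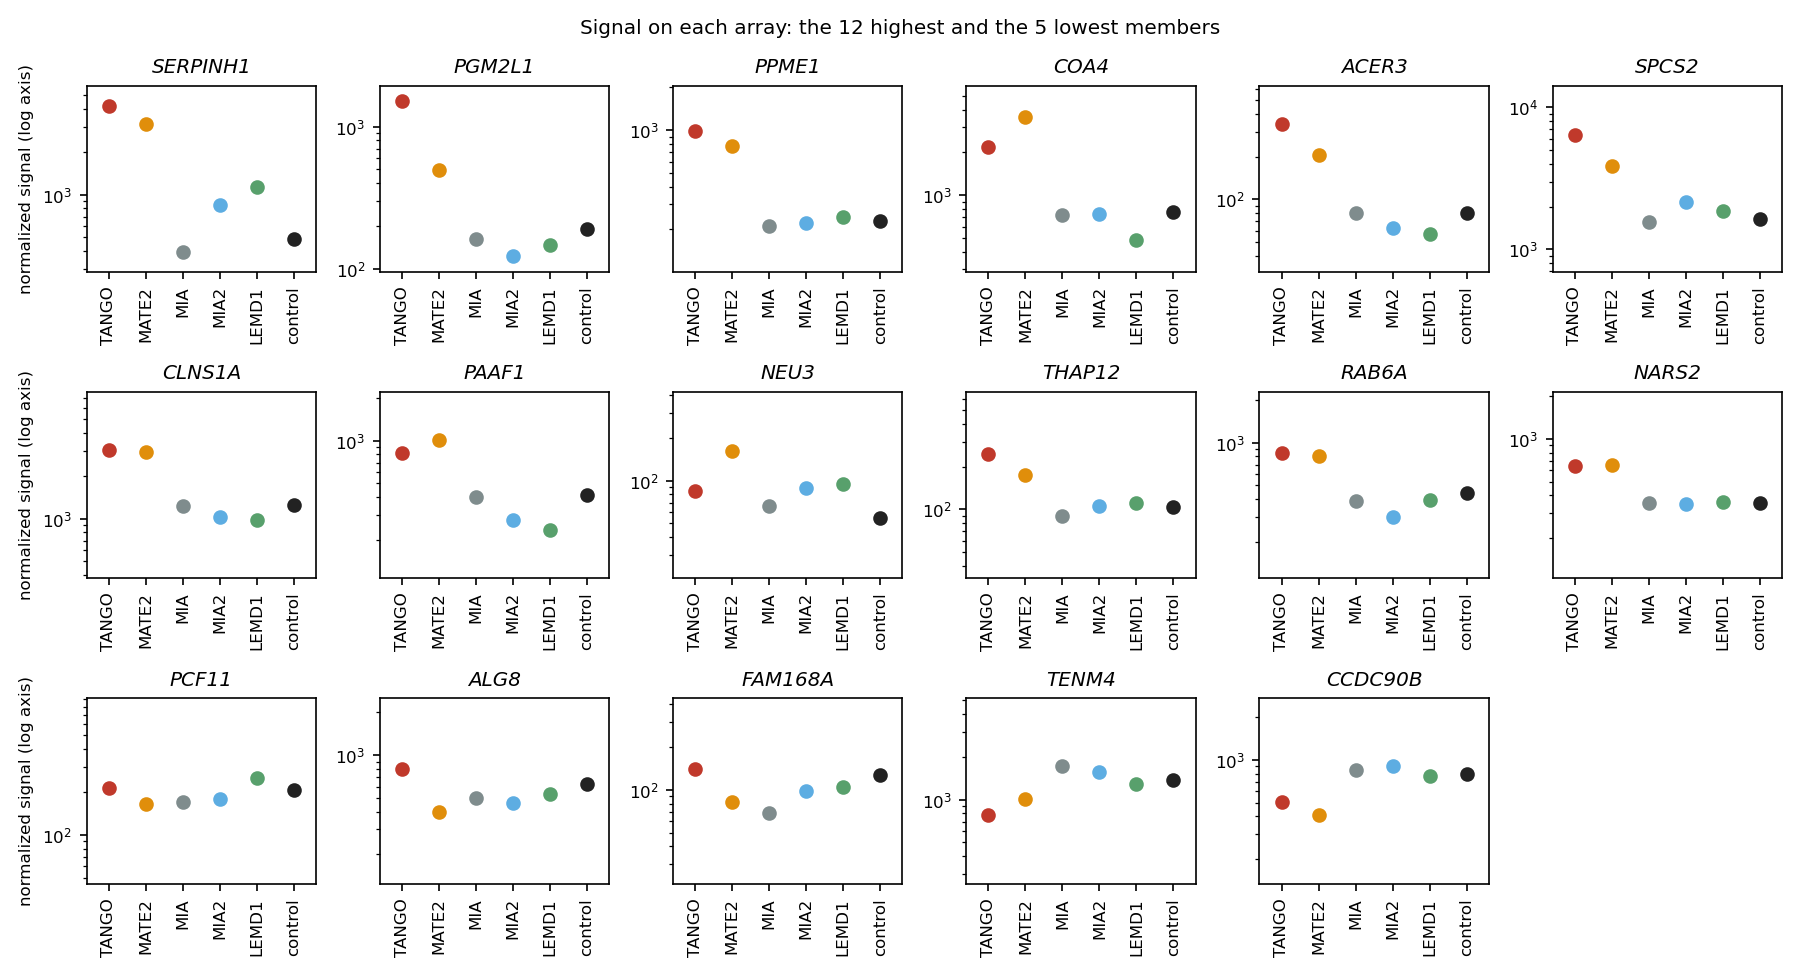
Normalized signal on a log axis of 17 members on each of the 6 arrays, 1 panel per gene with its own range. Shown are the 12 members with the highest and, in the last row, the 5 with the lowest mean log2 ratio on the TANGO- and MATE2-labelled arrays. In 11 of the 12 highest, NEU3 being the exception, the signals of both arrays lie above those of the 4 other arrays, and in TENM4 and CCDC90B below them. Over all named genes 15.6% lay above and 18.9% below. The genes shown were picked by their ratios on these 2 arrays, so the separation follows largely from the choice and is a description alone.

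The remaining groups held few measured genes. SLCO2B1, an organic anion transporter, was at 0.73 on the TANGO-labelled array and 0.39 on the MATE2-labelled array. C2CD3, a centriole protein needed for cilia, was at 0.34 and 0.24, and DLG2, a scaffold protein of synapses, at 0.85 and 0.09. TENM4, a large transmembrane adhesion protein, had signals of 778 and 1016, against 1715, 1577 and 1285 on the other siRNA arrays and 1367 on the control array. With CCDC90B it was one of the 2 members whose signals lay below those of the 4 other arrays on both. FAM168A had signals of 140 and 81.8, within the range of 69.1 to 126 of the other arrays only on the MATE2-labelled array. Of the members with no ratio on either array, AQP11, KCTD21, P4HA3, RNF169, UCP2 and XRRA1 had no named probe, and CHRDL2, GDPD5, KCNE3 and PLEKHB1 were near background on all 6 arrays. FCHSD2, MAP6, MYO7A and USP35 were near background on some arrays. FCHSD2 was at least 1.88-fold above control on the TANGO-labelled array. MAP6 was good on the control array alone and at least 1.40-fold lower on the TANGO-labelled array and at least 1.61-fold lower on the MATE2-labelled array. ANKRD42 had a log2 ratio of -0.30 on the TANGO-labelled array and was at least 2.03-fold lower on the MATE2-labelled array.

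Along the chromosome the members were divided at RAB6A and NARS2 after their values were seen, so the contrast between the pieces follows from the division and is a description alone. By the ratio of the probe taken, the 44 members from RAB6A to NARS2 held all members past 2-fold on these arrays. Outside them, ANKRD42 had no ratio on the MATE2-labelled array but was at least 2.03-fold lower there. A second probe of RAB30, also after NARS2, was at 1.19 on that array. The 30 members measured from RAB6A to NARS2 had a median log2 ratio of 0.86 on the TANGO-labelled array, with 29 above 0. On the MATE2-labelled array their median was 0.81, with 26 above 0. The 4 measured members before RAB6A had medians of 0.15 and -0.04, and those after NARS2 had -0.26 over 7 genes and -0.20 over 6. Of 29 members from RAB6A to NARS2 with good spots throughout, 21 had both signals above those of the other 4 arrays and 0 below. Of 4 members before RAB6A, 2 were above and 0 below, and of 6 members after NARS2, 0 were above and 2 below. Over all named genes 15.6% were above and 18.9% below. At the centromeric edge, P2RY2 as the first measured member was at 0.42 and 0.12, and just outside, ATG16L2, an autophagy factor, was at -1.81 and -1.88 and the lipid carrier STARD10 at 0.09 and -0.74. At the telomeric edge, DLG2 was at 0.85 and 0.09 and its neighbour TMEM126B, a complex I assembly factor, just outside, was at -0.49 and 0.10. A further probe of DLG2 was near background on the TANGO-labelled array, at least 1.69-fold below control. That probe was at -0.21 on the MATE2-labelled array.

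The flanking genes, 28 on the centromeric side and 36 on the telomeric side, were not raised as blocks. The centromeric flank had median log2 ratios of -0.36 on the TANGO-labelled array, with 0 of 21 measured genes at least 2-fold higher and 1 lower, and -0.38 on the MATE2-labelled array, with 4 of 21 higher and 4 lower. Over all named genes 5.57% were higher and 9.09% lower on the TANGO-labelled array, and 5.93% higher and 11.7% lower on the MATE2-labelled array. The 4 higher were FOLR1 at 2.09, CLPB at 1.27, ANO1 at 1.21 and DHCR7 at 1.06, of which FOLR1, CLPB and ANO1 were below 0 on the TANGO-labelled array, at -0.20, -0.73 and -0.90. CCND1 had no named probe. The telomeric flank had medians of -0.31 and -0.22 over 27 genes, with 0 higher and 4 lower on the TANGO-labelled array and 1 higher and 4 lower on the MATE2-labelled array. EED, a subunit of the Polycomb repressive complex PRC2, was low on both arrays there, with signals of 270 and 254, against 829 to 954 on the other siRNA arrays and 985 on the control array. Over the rest of chromosome 11 outside the interval, 32 of 730 genes were at least 2-fold higher and 107 lower on the TANGO-labelled array, with a median of -0.18, and 43 of 734 were higher and 110 lower on the MATE2-labelled array, with a median of -0.12.

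**Figure D3:**
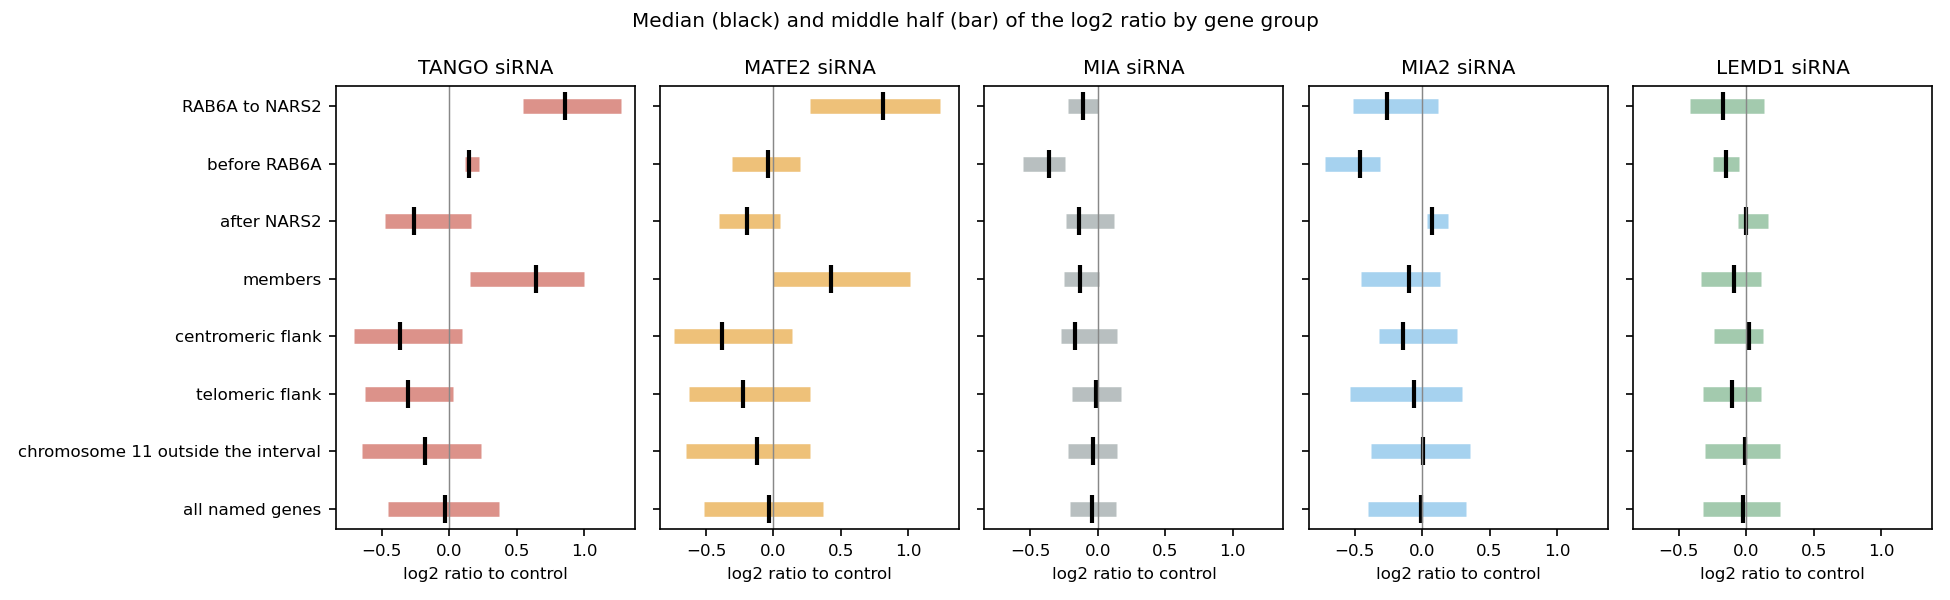
Log2 ratio to the control array (horizontal axis, the same range in each panel) by gene group for each siRNA array. Black marks are medians and bars span the middle 50% of the measured genes. On the TANGO and MATE2 siRNA arrays the group from RAB6A to NARS2 has medians of 0.86 and 0.81, while its medians on the MIA, MIA2 and LEMD1 siRNA arrays are -0.11, -0.26 and -0.17.

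The interval also holds 20 named genes that are not members, of which 14 were measured on the TANGO-labelled and MATE2-labelled arrays. Their medians were 0.10 and 0.09, with 3 at least 2-fold higher on each array, 1 lower on the TANGO-labelled array and 0 lower on the MATE2-labelled array. Of all named genes, 5.57% were higher and 9.09% lower on the TANGO-labelled array, and 5.93% and 11.7% on the MATE2-labelled array. MRPL48, a mitochondrial ribosomal protein, had signals of 1693 and 1238, against 535, 996 and 858 on the other siRNA arrays and 554 on the control array. NDUFC2, a subunit of respiratory complex I, had 2961 and 2806, against 1146, 1970 and 1888 on the other siRNA arrays and 1038 on the control array. Both genes lay above all other arrays. P2RY6, a nucleotide receptor next to P2RY2, was at 2.19 on the TANGO-labelled array and 0.06 on the MATE2-labelled array. P4HA3-AS1, an antisense gene of P4HA3, was at 0.04 on the TANGO-labelled array and 1.64 on the MATE2-labelled array. DDIAS, an apoptosis suppressor near the telomeric end, was at -1.08 and -0.18.

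The TANGO-labelled and MATE2-labelled arrays were also set against each other. The median log2 ratio of the TANGO-labelled over the MATE2-labelled array was 0.27 over 42 members, with 28 above 0, and 0.04 over all named genes, with 53.2% above 0. At least 2-fold higher on the TANGO-labelled array were 4 members, against 6.71% of all named genes, and 0 were lower, against 5.88%. This share is near that of all named genes, and the count was 2 with median scaling, with quantile normalization of these 2 arrays alone, with normexp and with no background correction. The 4 were PAK1 at 1.91, PGM2L1 at 1.60, KCTD14 at 1.01 and ALG8 at 1.004. AAMDC at -0.95, NEU3 at -0.92 and COA4 at -0.70 were higher on the MATE2-labelled array by less than 2-fold.

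On the other 3 siRNA arrays the members as a block lay near the control array. On the MIA-labelled array 0 of 41 members were higher and 0 lower, against 0.391% and 0.266% of all named genes. The median log2 ratio was -0.13, with 11 of 41 above 0, where 43.3% of all named genes were. On the MIA2-labelled array 1 of 40 was higher, against 3.3% of all named genes, and 3 were lower, against 5.2%. The median was -0.10, with 17 of 40 above 0, against 49.4% of all named genes. The higher gene was AAMDC at 1.46. The lower genes were EMSY at -1.38, RELT at -1.19 and POLD3 at -1.14, with signals of 71.7, 180 and 343 on the MIA2-labelled array, against 187, 412 and 753 on the control array. Second probes of EMSY and RELT were at 0.01 and -0.05, so these calls rest on 1 probe of each. With no background correction 0 members were higher and 0 lower on the MIA2-labelled array. ARRB1 was near background on the MIA2-labelled array, at least 2.06-fold below control. On the LEMD1-labelled array 1 of 41 was higher, against 2.03%, and 1 lower, against 3.98%. The median was -0.09, with 15 of 41 above 0, against 47.4%. SERPINH1 was the higher gene at 1.22, with its second probe at 0.43, and ARRB1 the lower at -1.03, with signals of 38.9 on the LEMD1-labelled array and 79.4 on the control array.

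The control array enters each of these ratios, so the MIA-labelled array was also put in its place. Against it, 16 of 42 members were at least 2-fold higher on the TANGO-labelled array, where 5.58% of all named genes were, and 14 of 40 on the MATE2-labelled array, where 5.19% were. The medians were 0.77, with 37 of 42 above 0 against 48.1% of all named genes, and 0.61, with 33 of 40 above 0 against 47.5%. TENM4 at -1.14 on the TANGO-labelled array and CCDC90B at -1.07 on the MATE2-labelled array were the members at least 2-fold lower, where 7.56% and 9.23% of all named genes were lower. For the MIA2- and LEMD1-labelled arrays against the MIA-labelled array the medians were -0.04 and 0.02. On the MIA2-labelled array, AAMDC at 1.59 and SERPINH1 at 1.09 were higher, 2 of 40 members against 2.48% of all named genes. EMSY at -1.17, RELT at -1.06 and POLD3 at -1.02 were lower there, 3 members against 3.13%, and 19 of 40 were above 0, against 49.9%. On the LEMD1-labelled array SERPINH1 at 1.52 was higher, 1 of 41 members against 2.11%, and 0 were lower, against 2.9%, with 21 of 41 above 0, against 48%. The second probe of SERPINH1 had signals of 405 on the MIA2-labelled array and 630 on the LEMD1-labelled array, against 450 on the MIA-labelled array, so its direction on the MIA2-labelled array was the opposite.

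Several members carry more than 1 probe, and these did not always have the same ratio. Of 16 members with over 1 named probe, 10 had at least 2 probes good on all 6 arrays, and THAP12 was not among these. In the 10, all these good probes were above 0 in 8 members on the TANGO-labelled array and in 9 on the MATE2-labelled array. The members were chosen by these ratios and the same count over all named genes is not given, so the counts only describe the members. On the TANGO-labelled array EMSY and RAB30 had probes on either side of 0, EMSY at 0.63 and -0.51 and RAB30 at -0.26 and 0.47. On the MATE2-labelled array PAK1 had both probes below 0. The second probe was often closer to 0, as in COA4 at 0.73 and 0.995 on the TANGO- and MATE2-labelled arrays and RPS3 at 0.21 and 0.07. RAB30 went the other way, with its second probe at 1.19 on the MATE2-labelled array, where the probe taken was at 0.13.

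**Figure D4:**
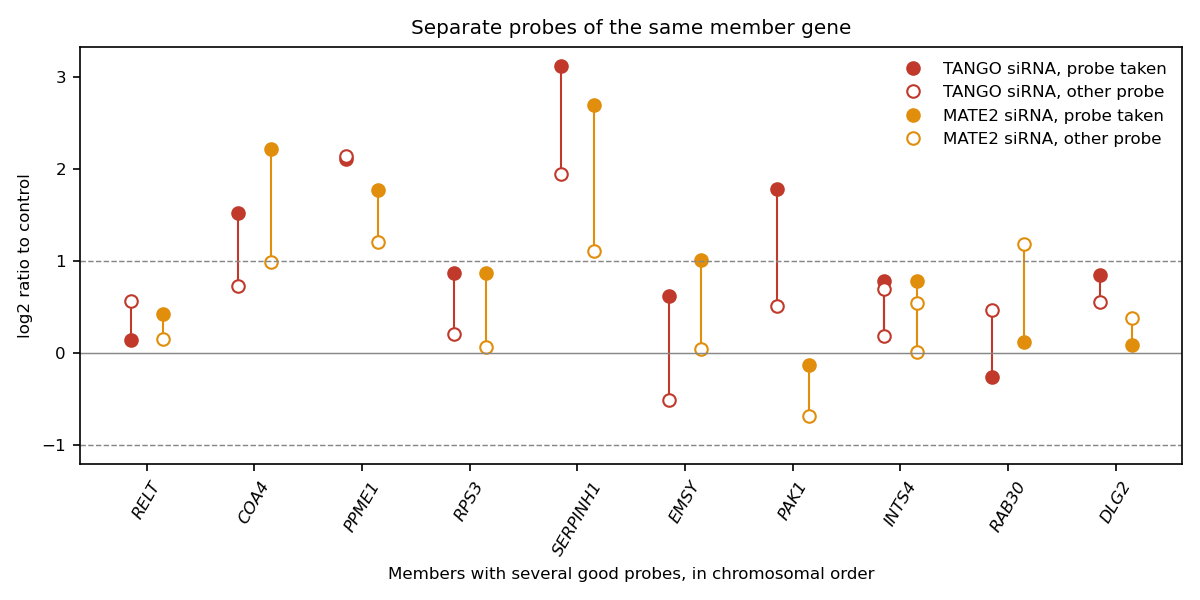
Log2 ratio to the control array (vertical axis) of each good probe of the 10 members with several probes, for the TANGO and MATE2 siRNA arrays. Filled points are the probe taken for the gene, open points its other probes, and dashed lines mark 2-fold. Both probes of PPME1 and of SERPINH1 lie above 2-fold on both arrays. The highest and lowest probes of COA4, EMSY, INTS4, PAK1, RAB30, RPS3 and SERPINH1 lie apart by over 0.5 on each array.

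Promoter windows of RefSeq, from 250 bases before to 50 bases after a gene's start in the build GRCh38.p14, were found for 41 of the 57 members. The windows of SERPINH1 (chr11:75562003-75562302, plus strand), PGM2L1 (chr11:74398384-74398683, minus strand), PPME1 (chr11:74171039-74171338, plus strand) and PAAF1 (chr11:73876749-73877048, plus strand) are shown, as these members are among the 8 with the highest mean ratio on both arrays and differ in the motifs they hold. Capitals mark matches on either strand to the GC box GGGCGG, the CCAAT box, the ETS motif CCGGAAG, the heat shock motif GAANNTTC and the TATA motif TATAAA, and neighbouring GC box matches in PGM2L1 overlap.
SERPINH1: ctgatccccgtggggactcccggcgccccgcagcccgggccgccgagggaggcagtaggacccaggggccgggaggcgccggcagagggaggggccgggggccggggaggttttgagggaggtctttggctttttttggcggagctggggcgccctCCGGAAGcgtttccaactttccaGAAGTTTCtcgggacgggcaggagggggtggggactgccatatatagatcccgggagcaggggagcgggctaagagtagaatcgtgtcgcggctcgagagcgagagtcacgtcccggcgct
PGM2L1: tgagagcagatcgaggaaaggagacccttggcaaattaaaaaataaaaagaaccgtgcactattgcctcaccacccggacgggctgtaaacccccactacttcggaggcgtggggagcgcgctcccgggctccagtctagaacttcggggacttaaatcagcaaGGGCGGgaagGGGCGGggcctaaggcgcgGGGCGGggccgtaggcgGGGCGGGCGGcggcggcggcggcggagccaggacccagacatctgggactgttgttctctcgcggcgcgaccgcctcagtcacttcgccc
PPME1: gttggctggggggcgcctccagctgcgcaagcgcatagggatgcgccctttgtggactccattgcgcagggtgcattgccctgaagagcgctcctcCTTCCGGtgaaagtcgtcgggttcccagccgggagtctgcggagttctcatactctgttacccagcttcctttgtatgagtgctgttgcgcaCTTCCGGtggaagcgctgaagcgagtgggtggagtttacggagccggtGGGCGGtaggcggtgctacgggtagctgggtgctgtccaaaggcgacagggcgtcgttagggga
PAAF1: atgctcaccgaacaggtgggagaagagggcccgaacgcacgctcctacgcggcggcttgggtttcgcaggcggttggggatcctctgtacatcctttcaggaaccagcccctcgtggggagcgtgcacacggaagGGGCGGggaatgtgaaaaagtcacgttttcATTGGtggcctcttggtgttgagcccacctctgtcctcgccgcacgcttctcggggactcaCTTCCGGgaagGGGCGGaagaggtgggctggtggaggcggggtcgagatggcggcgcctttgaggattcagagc
In the windows shown, SERPINH1 holds 1 ETS match and 1 heat shock match, and PGM2L1 holds 5 GC box matches. PPME1 holds 2 ETS matches and 1 GC box, and PAAF1 holds 2 GC boxes, 1 CCAAT box and 1 ETS match. A member can have several windows, and the one with the lowest start coordinate is shown. SERPINH1 also has a GC box and a CCAAT box among its windows that are not shown. A match is a description of the letters in the window and not a bound site. The 65 windows of the members held a median of 22 CpG and 62% GC, against 14 CpG and 58.7% over all 35116 windows. A GC box was found in 50.8% of the members' windows and 45% of all windows, a CCAAT box in 44.6% and 34.6%, the ETS motif in 18.5% and 10.3%, the heat shock motif in 6.15% and 6.77%, and the TATA motif in 4.62% and 11.5%.

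Some members start close to each other on opposite strands. PAAF1 and COA4 start 153 bases apart, and both were raised, with log2 ratios of 0.99995 and 1.53 on the TANGO-labelled array and 1.30 and 2.22 on the MATE2-labelled array. PPME1 and C2CD3 start 287 bases apart and differed, at 2.11 and 0.34 on the TANGO-labelled array and 1.77 and 0.24 on the MATE2-labelled array. AAMDC and RSF1, with 422 bases between their starts, were at 0.09 and 0.19 on the TANGO-labelled array and at 1.03 and 0.02 on the MATE2-labelled array. SPCS2 and XRRA1 start 175 bases apart and USP35 and KCTD21 293 bases apart, with no ratio for XRRA1, USP35 and KCTD21.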

How the data were processed

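Total RNA of HSC3 cells was hybridized to 6 arrays, 1 per condition as the labels give it. The deposited scanner files hold spot intensity, the mean brightness less the median local background, and per the file headers come from the software CodeLink Expression Analysis, version 5.0.0.31312. A table quantile normalized by the authors holds linear signal intensity and served as an alternative. The genome build used for the array was not given in the sources used here.

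Of 53423 gene probes, 320 masked on any array were left out. Values were quantile normalized over 6 arrays, floored at 1 and set on a log2 scale (Python 3.11.15, numpy 2.4.6, pandas 2.3.3). Symbols came from the platform annotation (23311 probes) or the sequence accession (649), and 898 probes with several symbols were not used for genes. For a gene with several probes, the good probe with the highest mean log2 signal was taken. The members, the role groups, the flanks and the alternatives were chosen with earlier results of these data known. Signals were given for the 12 members with the highest and the 5 with the lowest mean ratio on the TANGO- and MATE2-labelled arrays and for members past 2-fold. Flanking genes past 2-fold could be named, and other genes of the interval were named after their values were seen. The ratio computation was tested on simulated data. No test between conditions was run. Alternatives were another scaling, background correction, flag filter, offset, probe rule, comparator and the deposited table.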

Additional observations from a re-analysis of the deposited data

How the results depend on the processing

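The count of members at least 2-fold higher on the TANGO-labelled array was 10, and 16 with the MIA-labelled array as comparator. On the MATE2-labelled array it was 11, and 7 with normexp background correction, 7 with no background correction and 7 with bright good probes alone, where 24 members were measured. Over all alternatives these counts were 8 to 16 and 7 to 14. The cause was not tested, other than that fewer members enter with bright probes alone. The median log2 ratio of the members was 0.48 to 0.86 on the TANGO-labelled array and 0.32 to 0.65 on the MATE2-labelled array, and -0.18 to 0.02 on the LEMD1-labelled array, where the sign turned with the MIA-labelled array as comparator. Each median moved by less than the robust SD of that comparison over all genes, which served as the tolerance. For the TANGO-labelled over the MATE2-labelled array the median was 0.13 to 0.30, with 2 to 8 members higher. On the MIA2-labelled array, where 1 member was higher and 3 lower, 0 were higher and 1 lower with normexp, 0 and 0 with no background correction, 1 and 1 with the mean over probes, 1 and 5 when 1 good spot of the pair sufficed, and 3 and 7 with no filter on flags. Members above all 4 other arrays on both were 16 to 25. Of 288 values of the 27 called ratios of single members under the alternatives, 0 changed sign and 248 were still at least 2-fold. PAK1 on the TANGO-labelled array was at 1.15 as the mean of its probes, and NEU3 on the MATE2-labelled array at 0.88 with no background correction. ARRB1 on the LEMD1-labelled array ranged between -1.03 and -0.29. No paired analysis was possible because each group has 1 array, so the groups share fewer than 2 replicate numbers. Precision is limited by the number of arrays and, for dim probes, by signal over background: the lowest good signal was 27.5 to 38.6 per array.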
